A study of Mus musculus with 6 samples.

Results

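The microRNA cluster inside the mouse gene Sfmbt2 was examined in small RNA libraries of J1 embryonic stem cells. Its members were all hairpins with a Mir symbol that lie within Sfmbt2 on its strand, which gave 71 of the 1174 hairpins searched. They comprise 5 hairpins of the miR-297 family, 23 of miR-466, 14 of miR-467 and 29 of miR-669. The products of the 71 hairpins were counted as 59 arms, 29 from the 5p side and 30 from the 3p side, of 1265 arms in all. An arm is a mature product from either side of the hairpin stem, and hairpins whose commonest product is the same sequence share 1 arm. Of the 59 arms, 40 came from a single hairpin, 19 from several, and 3 included a relative outside Sfmbt2 with the same product. A shared arm is named by its hairpins, so miR-467a/b-5p is the 5p product of miR-467a and miR-467b, and the plots write each hairpin number in full.

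Sfmbt2 encodes a Polycomb group protein and is an imprinted gene, expressed in mouse mainly from the paternal allele and needed in extraembryonic tissues. Its intron carries a large tandem array of related microRNA hairpins that is found in rodents, and the array is known chiefly for its expression in the placenta and in early embryonic cells. A hairpin is released from the transcript by Drosha and cut by Dicer, one of its arms is usually loaded into an Argonaute protein, and the seed near the 5' end of that arm pairs with target messenger RNAs.

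The study treated J1 mouse embryonic stem cells, adapted to gelatin and kept in 1000 U/ml LIF (leukemia inhibitory factor, which sustains self-renewal), and sequenced small RNA after 24 h. The groups were DMSO (1 µL, vehicle), Retinoic acid (1 µM, a differentiation signal), BIO (1 µM) and CHIR99021 (3 µM), both inhibitors of the kinase GSK3, ddH2O (1 µL, vehicle) and vitamin C (50 µg/ml). DMSO served as the control of retinoic acid, BIO and CHIR99021, and ddH2O as that of vitamin C. Each group was 1 library of 1 line, so no p-value was possible, and the labels say of BIO that its raw reads were lost. Levels are given as CPM, counts per 1000000 microRNA tags of a library. Each ratio carries a 95% exact conditional binomial interval and each share a 95% exact Clopper-Pearson interval, which cover counting error only. Reads lacking molecular identifiers may repeat the same molecule.

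The libraries held 729176 (retinoic acid) to 2155067 (DMSO) microRNA tags, which were 3.76% to 11.4% of all tags in these 2 libraries and between them in the others. A count of 3, taken as the limit of detection, was worth 4.11 CPM in the retinoic acid library and 1.39 to 2.10 CPM elsewhere. As a check of the cell type, 5 of the 6 stem cell hairpins listed from the miR-290 cluster were annotated under the listed symbol. These 5 together reached 154324 CPM in retinoic acid and 251505 to 318773 CPM elsewhere. The sum leaves out the listed Mir292a, although an arm named miR-292-3p was counted, with 25651 tags in DMSO. In the retinoic acid library miR-10a, whose gene lies in a Hox cluster that retinoic acid induces, stood at 57433 CPM, against 372 to 1163 CPM elsewhere.

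On the GRCm38 assembly the hairpins spanned 51.6 kb of chromosome 2, from 10466663 to 10518279 on the plus strand, within Sfmbt2 at 10370510 to 10595253. All 71 lay in intron 10 of a GENCODE M21 transcript of Sfmbt2, from 10461473 to 10523944, and 0 overlapped an annotated exon. The hairpins were 73 to 127 bases long. The middle of the array was repetitive. The 10 miR-467a hairpins and miR-467b stretched from 9.68 to 36.6 kb after the start of the first hairpin, and 9 of the 10 steps between neighbours measured 2.41 to 2.47 kb, with one step of 4.88 kb. Copies of miR-466b or miR-466c and of miR-669a or miR-669p lay between them. Most of these copies share an arm with other copies, and the counts of a shared arm were split evenly, so the levels of its copies cannot be told apart. miR-467b-3p, miR-466c-5p and miR-669p-3p were counted as arms of their own.

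Some microRNAs of the same families are encoded outside Sfmbt2. RefSeq mature sequences (GRCm38.p6) of 4 relatives outside Sfmbt2 are shown here because each has its seed, bases 2 to 8 in capitals, in common with arms of the cluster.
miR-466i-3p: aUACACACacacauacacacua
miR-467h: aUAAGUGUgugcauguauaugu
miR-466j: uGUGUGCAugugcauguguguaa
miR-466k: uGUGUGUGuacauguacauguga
The seed of miR-466i-3p was that of miR-466f-2-3p, miR-466f-3-3p and miR-669c-3p, and the seed of miR-467h was that of miR-467e-5p. The seed of miR-466j was that of miR-466h-5p and the shared miR-466m/miR-669f-5p arm, and that of miR-466k belonged to miR-466p/k-5p. This last arm was merged from Mir466k itself and Mir466p, so the match is not independent of the merging. In all, the 59 arms had 37 different seeds, and 9 of these were shared by several arms, 31 arms together. The largest such set held 10 arms of the 3p side, among them miR-467a/d-3p, miR-297c/b/a-3p, miR-467e-3p and miR-669m-3p, with a summed mean level of 1053 CPM. The 2 sides also differed in base composition. A median of 72.7% of the bases of the 5p arms were G or U (range 50.0% to 83.3%), whereas a median of 77.3% of the bases of the 3p arms were A or C (range 59.1% to 86.4%).

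A single product made up most of the cluster. miR-669c-5p, from a hairpin 42.6 kb into the array, stood at 15593 CPM in DMSO and 14044 in ddH2O, 35603 in retinoic acid, 20686 in BIO, 17233 in CHIR99021 and 11720 in vitamin C. That was 77.2% (vitamin C) to 88.9% (CHIR99021) of the summed level of all 59 arms. The opposite arm of the same hairpin, miR-669c-3p, had a mean of 2.78 CPM over the 6 libraries. Of the 59 arms, 41 reached 10 CPM in at least 1 library, 24 did so in all 6, and 14 reached 100 CPM in at least 1. The remaining 18 arms stayed under 10 CPM throughout, and every one of the 71 hairpins had at least 1 tag assigned to it. Since copies share tags, a tag assigned to a hairpin does not show that this copy was transcribed.

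**Figure D1:**
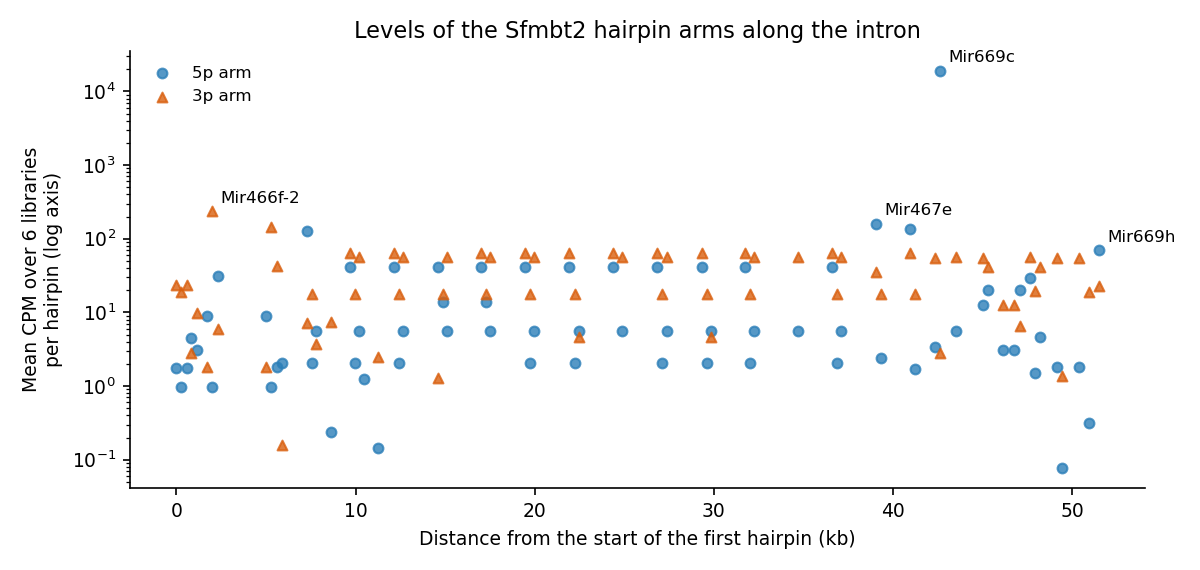
Each hairpin is drawn at its distance in kb from the start of the first hairpin, with the mean CPM over the 6 libraries of its 5p arm (circles) and 3p arm (triangles) on a log axis. Counts of arms shared by several hairpins are split evenly, which gives the repeated levels between about 10 and 37 kb; the 5p arm of Mir669c, at 19146 CPM, lies far above all the others.

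Summed over the 59 arms, the cluster made up 1.86% (1.85 to 1.88) of the microRNA tags in DMSO and 1.70% (1.68 to 1.72) in ddH2O, 4.43% (4.38 to 4.47) in retinoic acid, 2.35% (2.33 to 2.37) in BIO, 1.94% (1.92 to 1.96) in CHIR99021 and 1.52% (1.50 to 1.53) in vitamin C. The retinoic acid library stood apart as the highest, and the other 5 lay between 1.52% and 2.35%. Without miR-669c-5p the cluster stood at 3044 CPM in DMSO and 2987 in ddH2O, 8653 in retinoic acid, 2848 in BIO, 2151 in CHIR99021 and 3455 in vitamin C. Retinoic acid was again highest, and CHIR99021 rather than vitamin C was lowest.

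**Figure D2:**
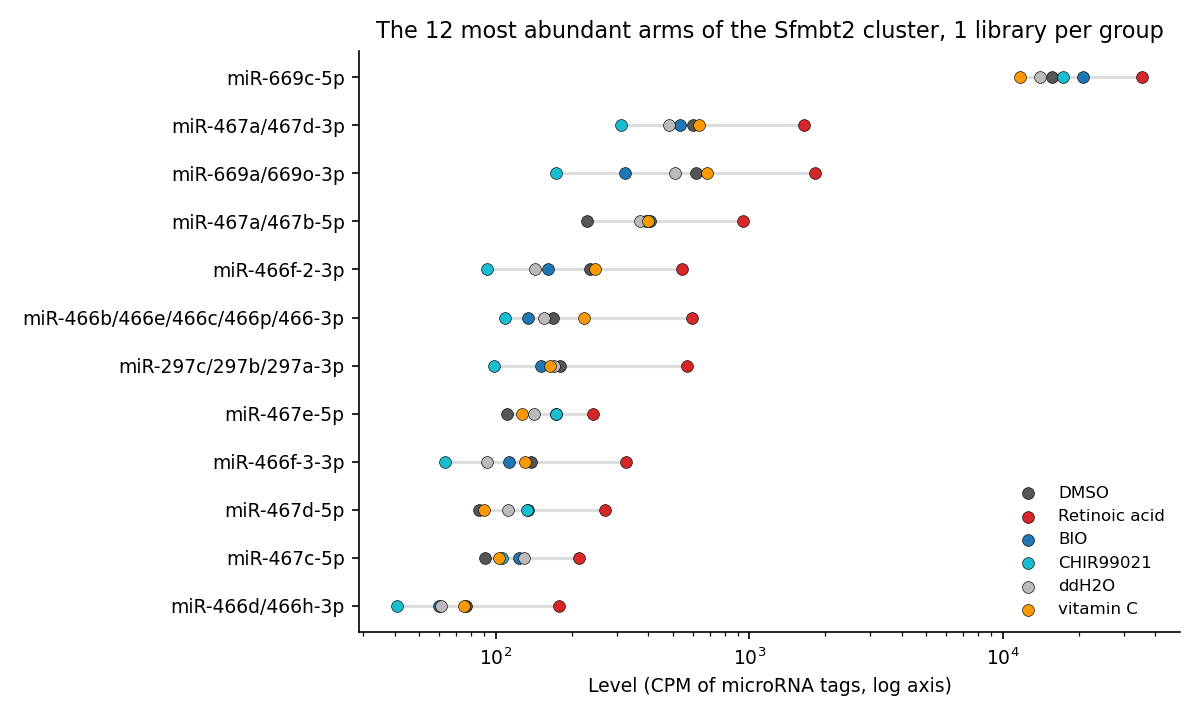
The 12 arms with the highest mean level are plotted on a log axis in CPM, with 1 point for each of the 6 libraries. The retinoic acid point lies to the right of the others for each of the 12 arms, and for the 7 arms from the 3p side the CHIR99021 point lies furthest to the left.

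Retinoic acid, which signals differentiation through nuclear receptors, was compared with DMSO, and arms from both sides of the hairpins were higher. The summed level was 2.37-fold that of DMSO (interval 2.34 to 2.41), or 2.84-fold (2.75 to 2.94) without miR-669c-5p. An arm was called when its CPM differed at least 2-fold, the interval excluded 1 and it reached 10 CPM in the higher library. Of the 41 arms compared, 32 were called higher (78.0%), where 33.1% of all arms were, and 0 were called lower, where 7.68% of all arms were. The median log2 ratio was 1.36 over these 41 arms and 0.46 over all 534 arms compared. Because an arm could pass the minimum through the retinoic acid library alone, the count was also taken over the 30 arms whose mean over the 6 libraries was at least 10 CPM. Of these, 30 lay above 1 and 25 were called higher, against 137 of the 483 arms of all kinds with such a mean, and 29 of the 30 had their highest level in retinoic acid. The exception was miR-669h-3p, at 39.8 CPM in retinoic acid and 45.8 in vitamin C. Over all 59 arms, 52 were above DMSO, 3 below and 4 equal.

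Among arms of at least 100 CPM in the higher library, the highest ratio to DMSO in retinoic acid was that of miR-467a/b-5p. It stood at 230 CPM in DMSO and 371 in ddH2O, 945 in retinoic acid, 407 in BIO, 392 in CHIR99021 and 397 in vitamin C, and the ratio was 4.11 (3.66 to 4.63). It was followed by miR-669a/p-5p, at 39.9 CPM in DMSO and 147 in retinoic acid (3.68-fold, 2.74 to 4.94). The third was the 3p arm that miR-466b shares with miR-466e, miR-466c, miR-466p and miR-466, at 168 and 594 CPM (3.54-fold, 3.07 to 4.08). The lowest of these ratios were 1.56 (1.16 to 2.09) for miR-669h-5p, at 64.0 CPM in DMSO and 100.1 in retinoic acid, 2.19 (1.79 to 2.67) for miR-467e-5p, at 110 and 241 CPM, and 2.28 (2.25 to 2.32) for miR-669c-5p. The difference from DMSO therefore ranged from 1.56-fold to 4.11-fold among abundant arms, and the dominant product was near the bottom of that range.

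The size of the retinoic acid difference depended on what the counts were scaled to. Scaling by TMM factors lowered every log2 ratio of this comparison by 0.50 and median-of-ratios scaling lowered it by 0.36, which brought the median of all arms to -0.04 and 0.10. The median of the 41 arms of the cluster was then 0.86 and 1.00. The summed ratio fell to 1.68 and 1.85, and 12 and 18 arms were called higher with 0 called lower, so the sum no longer passed 2-fold. A scaling shifts all arms of a comparison alike, so the gap between the cluster and the median arm cannot change with it. Scaled to all tags of the library, of which microRNAs were a smaller share in retinoic acid, the sum was 0.783 of DMSO, with 1 arm called higher and 1 lower. The median of all arms then lay at -1.14 and that of the cluster at -0.24. The retinoic acid library was also the highest for 6 hairpins typical of fibroblasts and mesenchyme, at 13577 CPM against 5260 to 9529 elsewhere, and Mir214 of that list was at 0 in DMSO, CHIR99021 and ddH2O. The 5 hairpins of miR-302 and miR-367, which mark primed pluripotent cells, summed to 91.9 CPM there and to 81.5 to 254 CPM elsewhere, with Mir302c and Mir367 at 0 in retinoic acid and Mir367 at 0 in ddH2O too. The 11 let-7 hairpins, listed for differentiated cells at large, summed to 89620 CPM in retinoic acid, with 72582.5 (CHIR99021) to 97686 CPM (BIO) elsewhere. In a bulk library more expressing cells and more RNA per cell cannot be told apart, and the part of these markers in the result was not tested.

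**Figure D3:**
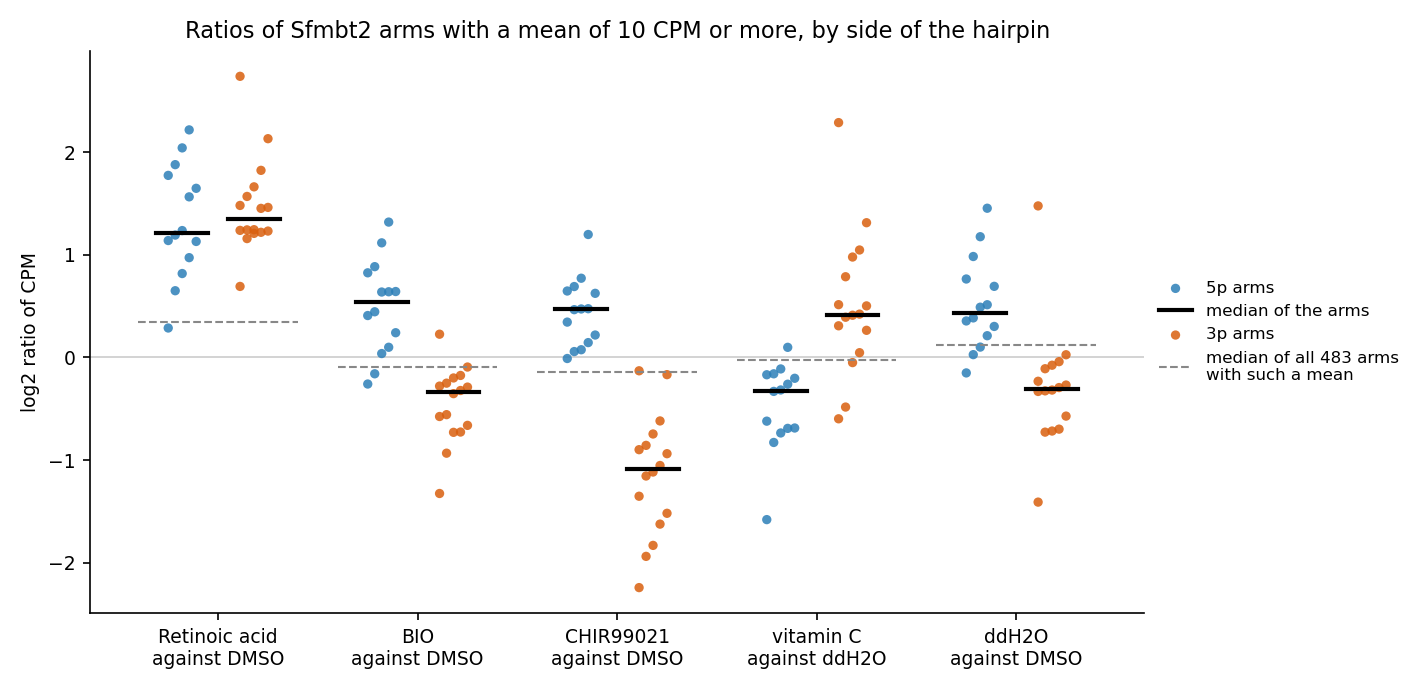
Each point is the log2 ratio of CPM of an arm with a mean of at least 10 CPM (14 from the 5p side, 16 from the 3p side) in the 5 comparisons; black bars are medians by side and dashed lines the median of all 483 arms with such a mean. Both sides lie above 0 in retinoic acid, though not when counts are scaled to all tags, and the medians of the sides part in the other 4 comparisons, the 3p side being lower except in vitamin C. A scaling moves both sides alike, so it cannot alter this gap.

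BIO and CHIR99021, both inhibitors of GSK3, a kinase that marks β-catenin for degradation when Wnt signaling is off, were each compared with DMSO. Most arms of the 5p side lay above their DMSO level and most arms of the 3p side below it. In BIO the summed level was 1.26-fold that of DMSO (1.25 to 1.28), and 0.936-fold (0.903 to 0.969) without miR-669c-5p. Of 30 arms compared, 2 were called higher, where 1.91% of all arms were, and 1 was called lower, where 5.3% of all arms were. The median log2 ratio was -0.17, beside -0.09 over all 472 arms compared. By side, the medians were 0.54 for 14 arms of the 5p side and -0.34 for 16 arms of the 3p side. On the 5p side 12 of the 14 lay above 1, and on the 3p side 15 of the 16 lay below 1.

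The arms called in BIO were low. miR-466d/n-5p stood at 17.6 CPM in DMSO and 48.6 in ddH2O, 60.3 in retinoic acid, 44.3 in BIO, 40.6 in CHIR99021 and 29.1 in vitamin C, a ratio of 2.51 (1.71 to 3.77) for BIO. DMSO was the lowest of the 6 libraries for this arm. miR-669o-5p was 2.19-fold higher in BIO (1.41 to 3.47), at 31.4 against 14.4 CPM, and miR-669h-3p was at 9.76 against 24.8 CPM, a ratio of 0.393 (0.216 to 0.646). Among abundant arms the highest ratios were 1.77 (1.58 to 1.98) for miR-467a/b-5p, 1.56 (1.32 to 1.85) for miR-467e-5p and 1.56 (1.29 to 1.89) for miR-467d-5p, none of which passed 2-fold. The lowest were 0.524 (0.477 to 0.575) for miR-669a/o-3p, 0.679 (0.590 to 0.781) for miR-466f-2-3p and 0.800 (0.682 to 0.937) for the shared miR-466b 3p arm.

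In CHIR99021 the summed level was 1.04-fold that of DMSO (1.02 to 1.06), while without miR-669c-5p it was 0.707-fold (0.677 to 0.738). Of 29 arms compared, 9 were called lower (31.0%), where 12.3% of all arms were, and 1 was called higher, where 6.25% of all arms were. All 9 were of the 3p side, where 15 of 15 arms lay below 1 with a median of -1.12. On the 5p side 13 of 14 arms lay above 1, with a median of 0.47, and the 1 called higher was miR-466d/n-5p (2.30-fold, 1.50 to 3.56). The median over all 480 arms compared was -0.11, and outside the cluster it was -0.11 for 246 arms of the 5p side and -0.12 for 204 of the 3p side. Taken over arms with a mean of at least 10 CPM, the numbers were 0 of 16 above 1 on the 3p side and 13 of 14 on the 5p side. Scaled to all tags, the summed ratio was 0.548 and the medians were -0.46 on the 5p side and -2.04 on the 3p side, so the 5p median turned with that scaling.

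The 3p arm of miR-669a and miR-669o carried the lowest ratio among abundant arms. It stood at 616 CPM in DMSO and 511 in ddH2O, 1825 in retinoic acid, 323 in BIO, 173 in CHIR99021 and 679 in vitamin C, and the CHIR99021 ratio was 0.281 (0.244 to 0.322). CHIR99021 was the lowest of the 6 libraries for this arm, and BIO the next lowest. miR-466f-2-3p followed with 236 CPM in DMSO and 92.3 in CHIR99021 (0.391, 0.321 to 0.475), and miR-466f-3-3p with 138 and 63.2 CPM (0.460, 0.358 to 0.583). The most abundant 3p arm, miR-467a/d-3p, stood at 600.1 CPM in DMSO and 481 in ddH2O, 1652 in retinoic acid, 531 in BIO, 313 in CHIR99021 and 631 in vitamin C, and its ratio of 0.522 (0.467 to 0.581) did not pass 2-fold. At the other end, miR-467a/b-5p from the same hairpins was 1.71-fold higher (1.51 to 1.93), miR-467e-5p 1.57-fold (1.31 to 1.88) and miR-467d-5p 1.54-fold (1.25 to 1.90). The doses of BIO and CHIR99021 differ, so these values are set side by side without a comparison between the inhibitors.

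Vitamin C, a cofactor of enzymes that oxidise methylated DNA, was compared with ddH2O. The summed level was 0.891-fold that of ddH2O (0.877 to 0.906), and 1.16-fold (1.12 to 1.20) without miR-669c-5p. Of 33 arms compared, 4 were called higher (12.1%), where 5.98% of all arms were, and 1 was called lower (3.03%), where 1.44% of all arms were. The 4 were all of the 3p side: miR-669h-3p, miR-669k-3p, miR-669i-3p and miR-467e-3p, with ratios from 2.08 to 5.00. The median log2 ratio was -0.33 over 15 arms of the 5p side and 0.42 over 18 of the 3p side, with -0.01 over all 485 arms compared. On the 5p side 14 of 15 arms lay below 1, and on the 3p side 14 of 18 lay above 1.

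miR-669h-3p showed the largest of these ratios. It stood at 24.8 CPM in DMSO and 9.15 in ddH2O, 39.8 in retinoic acid, 9.76 in BIO, 8.40 in CHIR99021 and 45.8 in vitamin C, and the vitamin C ratio was 5.00 (2.89 to 9.09). BIO, CHIR99021 and ddH2O lay under 10 CPM, and DMSO was above ddH2O. Against DMSO instead of ddH2O, vitamin C was 1.84-fold higher. The arm called lower, miR-297b-5p, was at 13.2 CPM in ddH2O and 4.23 in vitamin C (0.322, 0.124 to 0.745). Among abundant arms, miR-466f-2-3p was 1.73-fold higher (1.48 to 2.02), the shared miR-466b 3p arm 1.43-fold (1.22 to 1.67) and miR-466f-3-3p 1.42-fold (1.16 to 1.74). The lowest were miR-467c-5p at 0.795 (0.653 to 0.967), miR-467d-5p at 0.802 (0.650 to 0.990) and miR-669c-5p at 0.835 (0.819 to 0.850).

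The vehicle libraries, which hold no active compound, differed from each other in the same measures. The summed level in ddH2O was 0.914-fold that of DMSO (0.900 to 0.928), and 0.981-fold (0.946 to 1.02) without miR-669c-5p. Of 32 arms compared, 3 were called higher in ddH2O (9.38%), where 4.97% of all arms were, and 1 was called lower (3.12%), where 2.28% of all arms were. The 3 were miR-669f-3p, miR-466d/n-5p and miR-669a/p-5p, with ratios from 2.26 to 2.82, and the 1 lower was miR-669h-3p at 0.369 (0.195 to 0.648). Here too the medians of the sides parted, at 0.49 over 15 arms of the 5p side and -0.29 over 17 of the 3p side. Among abundant arms the highest ratios were 1.62 for miR-467a/b-5p, 1.43 for miR-467c-5p and 1.31 for miR-467d-5p, and the lowest were 0.603 for miR-466f-2-3p, 0.672 for miR-466f-3-3p and 0.802 for miR-467a/d-3p. The retinoic acid, BIO, CHIR99021 and ddH2O ratios share the DMSO library, so a value that is particular to that library enters all 4.

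The balance between the sides can be read from each library alone. Without miR-669c-5p, 74.5% (73.5 to 75.6) of the cluster's tags were from the 3p side in DMSO and 61.1% (59.7 to 62.4) in ddH2O, 73.5% (72.4 to 74.6) in retinoic acid, 58.2% (56.9 to 59.4) in BIO, 47.5% (45.7 to 49.2) in CHIR99021 and 71.2% (70.1 to 72.3) in vitamin C. DMSO, retinoic acid and vitamin C formed the upper end, BIO and ddH2O lay lower, and CHIR99021 was lowest. As a ratio of summed CPM, 3p over 5p was 2.93 in DMSO and 1.57 in ddH2O, 2.77 in retinoic acid, 1.39 in BIO, 0.903 in CHIR99021 and 2.48 in vitamin C. The distance between the vehicles was 1.87-fold, nearly as large as the 2.11-fold between BIO and DMSO and larger than the 1.58-fold between vitamin C and ddH2O. The 3.24-fold between CHIR99021 and DMSO exceeded it, but the distance between CHIR99021 and ddH2O did not. Against ddH2O in place of DMSO, CHIR99021 stood at 0.576, BIO at 0.886 and retinoic acid at 1.77 of the control's ratio, and vitamin C at 0.846 of that of DMSO. The ratio in ddH2O was itself 0.536 of that in DMSO, a larger distance than the 0.576 of CHIR99021 from ddH2O. BIO thus lay close to ddH2O, and the direction for retinoic acid and vitamin C turned with the choice of vehicle.

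**Figure D4:**
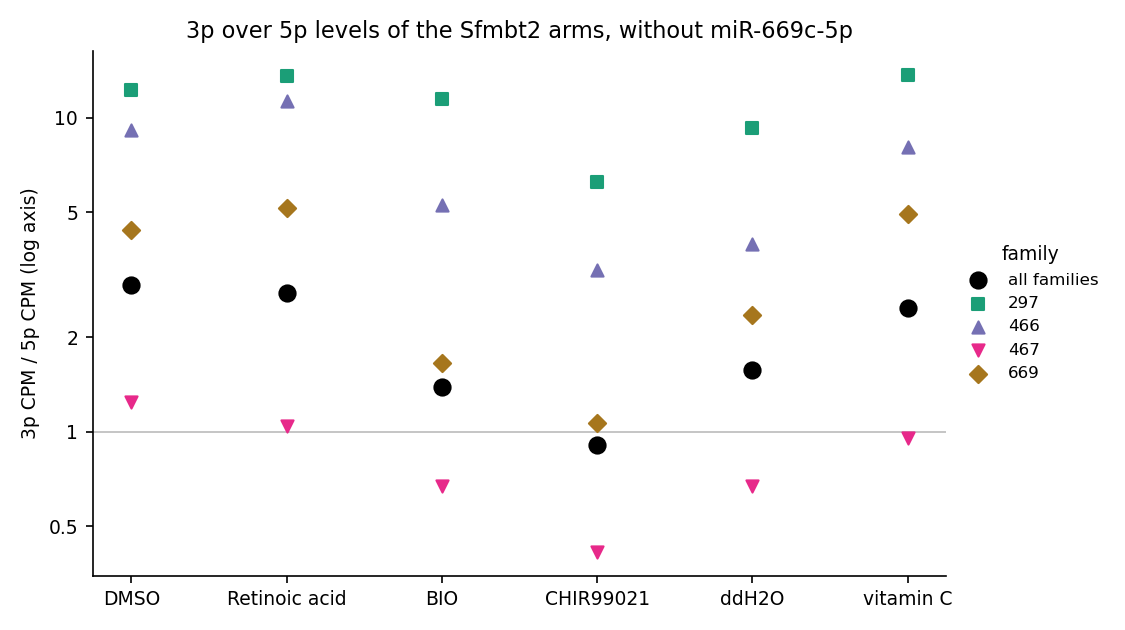
The ratio of summed 3p CPM to summed 5p CPM is shown on a log axis for each library, over all families (black circles) and for each family, without miR-669c-5p. CHIR99021 has the lowest point in every family, and the families keep their order, miR-297 highest and miR-467 lowest, in all 6 libraries.

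Each family had its lowest ratio in CHIR99021, at a distance that depended on the vehicle. For miR-297 it was 12.3 in DMSO, 9.31 in ddH2O and 6.27 in CHIR99021, and for miR-466 it was 9.11, 3.97 and 3.28. For miR-467 it was 1.25, 0.670 and 0.414, and for miR-669 it was 4.39, 2.35 and 1.06. The miR-466 ratio in CHIR99021 thus lay far from DMSO but near ddH2O. In miR-669 the 3p sum stood at 728 CPM in DMSO and 608 in ddH2O, 2164 in retinoic acid, 396 in BIO, 214 in CHIR99021 and 848 in vitamin C. The ratio of CHIR99021 to DMSO for this sum was 0.294 (0.260 to 0.333), the lowest of the 4 families. The share of 18 to 19 base tags among all tags of a library is a mark of shortened RNA. It was 8.01% in BIO, 10.9% in DMSO, 11.0% in ddH2O, 14.4% in retinoic acid, 15.8% in CHIR99021 and 18.7% in vitamin C. When tags under 20 bases were left out, the change in 3p over 5p was 0.307 for CHIR99021 and 0.474 for BIO, against 0.309 and 0.475 with them. Without miR-669c-5p, only 0.55% (BIO) to 1.52% (CHIR99021) of the cluster's tags were that short, so leaving them out could hardly move the ratio. The part of RNA shortening in the result was not tested.

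Pairing the arms from both sides of a hairpin used the same counts and showed the same shift, so it is not a separate measurement. In 10 pairs both arms of a hairpin had a mean of at least 10 CPM, involving 10 different 5p arms and 7 different 3p arms. The pairs are therefore not independent. They stand for 38 hairpins, and all but those of miR-467e and miR-669h hold an arm that several hairpins with a Mir symbol share. Every tag of miR-669h-3p, and 4.39% of those of miR-467e-3p, also matched a hairpin without a Mir symbol. For the shared arms and for miR-669h the change in a single hairpin cannot be read. From DMSO to CHIR99021 the log2 ratio of 3p to 5p changed by -1.80 in miR-467e and by -1.57 in miR-669h. Over all 10 pairs the median of this change was -1.64, and 10 of 10 moved towards the 5p side. In BIO the median change was -1.15 and in ddH2O against DMSO -1.03, with 10 of 10 towards the 5p side in each. In vitamin C against ddH2O it was 1.04, with 10 of 10 towards the 3p side, and in retinoic acid -0.08, with 5 in each direction. In 138 pairs elsewhere in the genome the medians were -0.02, -0.07, 0.05, 0.04 and 0.04 in the same order.

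**Figure D5:**
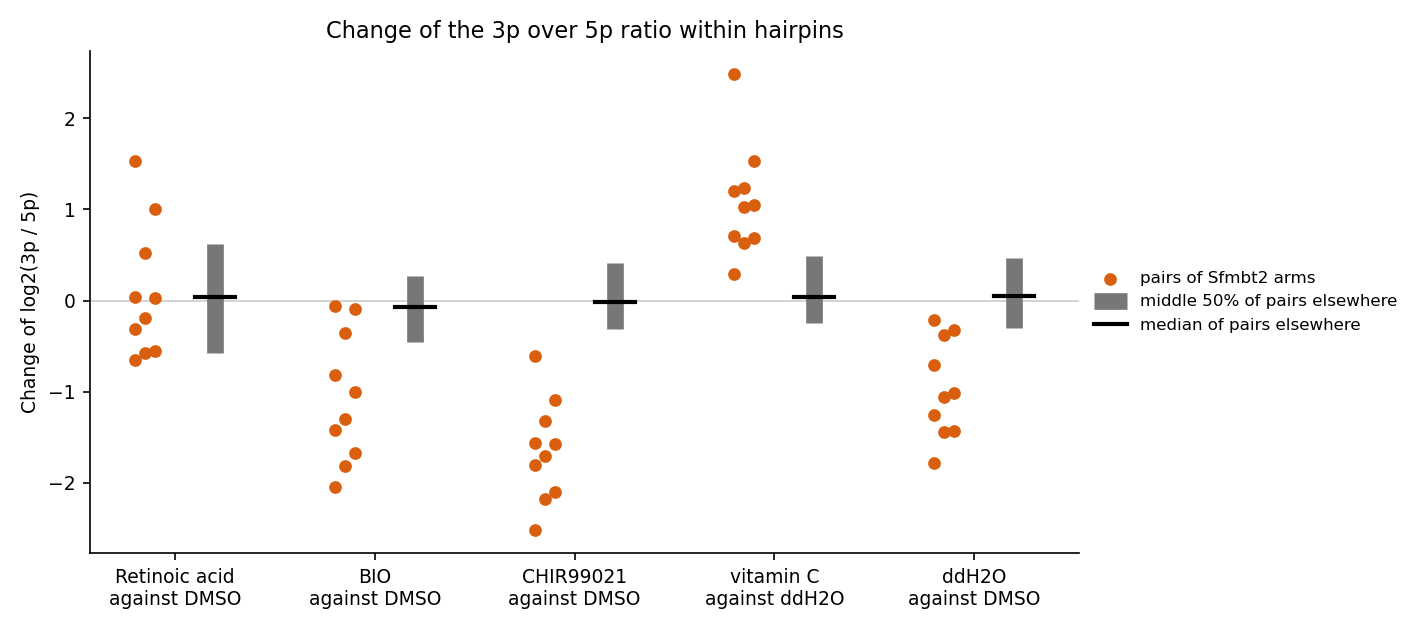
Points are 10 pairs of a 5p and a 3p Sfmbt2 arm of the same hairpin, most of them holding an arm shared by several hairpins. They are plotted by their change of log2(3p/5p) in the 5 comparisons. Grey bars span the middle 50% of 138 pairs from other hairpins and black lines mark their medians. The Sfmbt2 pairs lie below 0 in BIO, CHIR99021 and ddH2O against DMSO and above 0 in vitamin C, while the grey bars straddle 0 in each comparison.

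Arms outside the cluster that were rich in A or C were also mostly lower in CHIR99021, as were those with at least 75% G or U. The 3p arms of the cluster had a median of 77.3% A or C. Outside the cluster the median log2 ratio was -0.70 over the 6 arms compared with at least 75% A or C, all 6 of them below 1. It was -0.53 over the 50 with at least 60%, of which 37 were below 1. Both sets hold the relative miR-466i-3p, at -1.76 the lowest of the 6. Most of its counts are split with arms of the cluster, so these sets are not fully independent of it. For arms rich in G or U the median was -0.32 over 32 arms at 75%, of which 25 were below 1. At 60% it was -0.11 over 159 arms, of which 90 were below 1. The 3p and 5p arms of the cluster stood at -1.12 and 0.47. For the arms elsewhere with at least 60% A or C the medians were -0.25 in BIO, 0.09 in vitamin C against ddH2O, 0.06 in ddH2O against DMSO and 0.52 in retinoic acid. These composition classes were chosen after the values had been seen, and the part of composition in the result was not tested.

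The ends of the products were mostly stable between libraries. Of the miR-669c-5p tags, 99.5% to 99.6% had the start of the commonest tag, and their mean length was 23.5 to 23.7 bases. The 24-base form made up 70.9% (CHIR99021) to 80.6% (retinoic acid). Most other abundant arms were shorter, with mean lengths of 21.4 to 22.5 bases. The shared miR-466b 3p arm had 2 frequent starts, so its products carry different seeds. Its commonest tag's start held 39.5% to 52.5% of its tags, and the start 1 base before held 42.2% to 52.7% and was the commoner in DMSO, ddH2O, retinoic acid and vitamin C. miR-467d-5p had 50.8% to 62.7% of its tags at the start of its commonest tag and 37.3% to 48.8% at the start 1 base after. Up to 3 added bases at the 3' end, matching no annotated hairpin, were rare on miR-669c-5p, at 2.52% to 3.23% of its tags. They were common on miR-466f-3-3p, at 26.2% to 35.8%, and on miR-466f-2-3p, at 18.3% to 27.0%. On miR-466g-3p they reached 91.3% (vitamin C) to 94.1% (BIO). Neither the genome nor other transcripts were searched for these ends, so whether the bases are untemplated was not tested.

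Many tags of the cluster match other annotated hairpins or transcripts as well. Sfmbt2 itself holds 48 annotated hairpins without a Mir symbol. Leaving miR-669c-5p aside, 52.5% to 61.4% of the cluster's counts came from tags that also match a hairpin without a Mir symbol. Every tag of miR-467a/b-5p, miR-467a/d-3p, miR-669a/o-3p and miR-669h-3p was of this kind. The match was made to all such hairpins, inside or outside Sfmbt2, and how many tags stay within the gene was not counted. Counted separately, 5.18% to 9.58% came from tags that match another annotated transcript, and a tag can be of both kinds. These included 96.2% of the tags of miR-466f-2-3p, 74.1% of miR-466g-3p and 100.0% of miR-466f-1-3p. miR-669c-5p had 0% of either kind. With the tags of other transcripts left out, the summed ratios ranged from 0.882 to 2.38 over the 5 comparisons, and the 3p over 5p change was 0.316 for CHIR99021.

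The output of relatives outside Sfmbt2 could be read only in part. Of 10 such hairpins, Mir297-1, Mir466k and Mir466f-4 had a 5p product merged into an arm of the cluster, and 6 arms counted for relatives alone had tags. miR-466i-3p stood at 31.3 CPM in DMSO and 18.4 in ddH2O, 66.1 in retinoic acid, 13.3 in BIO, 8.98 in CHIR99021 and 31.0 in vitamin C. Only 4.05% of these counts came from tags that match it alone, and the rest were split with arms of the cluster, so its levels are not independent of theirs. miR-466q-5p, whose tags match it alone, lay between 1.37 and 6.67 CPM, and miR-466i-5p between 0 and 1.72 CPM. The levels of these 2 arms were near or below the limit of detection in at least some libraries and were not compared.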

How the data were processed

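The deposited file of each library lists distinct read sequences (tags) of 18 to 44 bases with their lengths and raw counts, as the values show. Per the labels' protocols, libraries came from TRIzol-extracted total RNA and a TruSeq kit; the submitters' processing notes name mm9, and trimming or mapping tools are not given in the sources used here. From these counts, tags of 18 to 26 bases were matched exactly to hairpins with a Mir symbol in GENCODE M21 (GRCm38). An arm was set by its commonest tag, with starts within 2 bases counted, arms with the same commonest tag merged and shared tags split evenly. Tags of snRNA, scaRNA, snoRNA, rRNA, Gm42418 or mitochondrial rRNA or tRNA were not counted. 0 of the 71 members matched an entry of the RefSeq mature table by name, and 8 relatives did.

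CPM is the count over all microRNA tags of that library, times 1000000. Depth was 2155067 microRNA tags for DMSO and 1748589 for ddH2O, 729176 for retinoic acid, 2099669 for BIO, 1428512 for CHIR99021 and 1890069 for vitamin C, and this depth sets the width of the intervals. Log2 ratios used a pseudocount of 0.5 counts. Groups were taken from the treatment labels and 5 comparisons were made. The arms named are the 12 with the highest mean CPM, the 3 highest and 3 lowest ratios per comparison at 100 CPM or more, and arms called against the majority. Other arms, such as those named where 5 or fewer were called, were chosen after their values were seen. Alternatives were median-of-ratios scaling (DESeq2 1.42.0), TMM (edgeR 4.0.16), scaling to all tags, other minimum levels, lengths, starts and 3' ends, tags of 1 arm only, the other vehicle, and, chosen after seeing the data, leaving out miR-669c-5p or tags of other transcripts or hairpins, and all alternatives of the 3p over 5p ratio and the relatives. Counting and calling were tested on simulated data. The members and lists were chosen with earlier results of these data known.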

Additional observations from a re-analysis of the deposited data

Results flagged for a closer look

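Some tags lie outside the main count but above a count of 3, the limit of detection. The 48 hairpins inside Sfmbt2 that have no Mir symbol had tags that matched no hairpin with one, 20 in DMSO and 13 in ddH2O, 13 in retinoic acid, 21 in BIO, 8 in CHIR99021 and 28 in vitamin C. Scaled to microRNA tags these were 5.60 (CHIR99021) to 17.8 CPM (retinoic acid). Tags of 27 to 44 bases inside the member hairpins, longer than a mature microRNA, numbered 7 in DMSO, 22 in BIO, 4 in CHIR99021 and 5 in ddH2O, with 1 in retinoic acid and 2 in vitamin C.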

How the results depend on the processing

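With 1 library per group, variation between cultures and library preparations is unmeasured, and the retinoic acid library, the shallowest, has the widest intervals. No paired analysis was possible because each group is 1 library. Leaving out tags that match the genome outside hairpins was not run, as no genome sequence was used here, and arms set by RefSeq mature sequences were not run, as 0 members matched.

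For the summed level, the ratio of retinoic acid to DMSO (2.37) was 1.68 with TMM, 1.85 with median-of-ratios and 0.783 scaled to all tags, and that of CHIR99021 (1.04) was 0.548 scaled to all tags. Without miR-669c-5p, BIO was 0.936 (1.26 with it), CHIR99021 0.707 and vitamin C 1.16 (0.891 with it). The other 47 values of the sum kept their direction and their side of the 2-fold limit.

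For 3p over 5p, the other vehicle as control gave 1.77 for retinoic acid (0.947 with DMSO), 0.886 for BIO (0.475), 0.576 for CHIR99021 (0.309) and 0.846 for vitamin C (1.58 with ddH2O). Leaving out tags of hairpins without a Mir symbol gave 0.532 for BIO and 1.07 for retinoic acid. Across all settings CHIR99021 ranged from 0.307 to 0.576.

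Arms called higher in retinoic acid (32) were 12 with TMM, 18 with median-of-ratios, 1 scaled to all tags and 13 at a minimum of 100 CPM; scaled to all tags, 1 was called lower (0). In CHIR99021 the 9 called lower became 15 scaled to all tags and 3 at 100 CPM, and the 1 called higher became 0 scaled to all tags, at 100 CPM and with the other vehicle. In BIO the 2 called higher became 1 scaled to all tags and 0 at 100 CPM and with the other vehicle. The 1 called lower became 4 scaled to all tags, 2 with no minimum, and 0 at 100 CPM and without tags of hairpins that have no Mir symbol. In ddH2O against DMSO the 3 called higher became 5 with no minimum and 0 at 100 CPM, and the 1 called lower became 4 scaled to all tags, and 0 at 100 CPM and without tags of hairpins that have no Mir symbol. In vitamin C the 4 called higher became 0 at 100 CPM, and the 1 called lower became 3 with no minimum and 0 at 100 CPM. The other 93 counts stayed within 1.5 times.

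Scaled to all tags, 9 named arms called higher in retinoic acid lay below DMSO: miR-297b-5p 0.720, miR-467e-5p 0.720, miR-669c-5p 0.753, miR-466f-2-3p 0.761, miR-466d/h-3p 0.766, miR-467c-5p 0.775, miR-466f-3-3p 0.779, miR-467a/d-3p 0.907 and miR-669a/o-3p 0.977. With ddH2O as control, miR-466d/n-5p was 0.911 in BIO and 0.835 in CHIR99021, and miR-669h-3p was 1.07 in BIO. Ratios of named arms that had not been called changed direction 16 times scaled to all tags, 14 times with the other vehicle, and 1 time each with TMM and median-of-ratios. Called ratios of named arms kept their direction but missed the call 8 times with TMM, 7 with median-of-ratios, 8 scaled to all tags and 9 with the other vehicle.

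For the summed relatives outside Sfmbt2, counting only tags of 1 arm gave 0.788 for retinoic acid (1.83 in the main count), 1.16 for BIO (0.553), 1.21 for CHIR99021 (0.490) and 0.648 for vitamin C (1.44). These sums rest on few tags near the limit of detection, since no relative exceeded 6.67 CPM in such tags. The ratios are therefore not read as changes in level. Scaled to all tags, retinoic acid was 0.602, BIO 0.457 and ddH2O against DMSO 0.486 (0.646), and CHIR99021 was 0.515 with TMM and 0.526 with median-of-ratios. The cause of these changes was not tested.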

Other observations

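On the strand opposite to the member hairpins, 1 tag was found in DMSO and 0 in the other 5 libraries, where a count of 0 allows up to 1.43 to 4.11 CPM.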
